A study of Mus musculus with 6 samples.

Results

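Border-associated macrophages are the resident macrophages of the perivascular spaces, the meninges and the choroid plexus. They share with microglia an origin in the early embryo and a dependence on the receptor Csf1r, but sit outside the brain parenchyma, where they take up material from blood and cerebrospinal fluid through scavenger and lectin receptors. Because they carry CD11b on their surface, bead enrichment for CD11b can collect them together with microglia. The data below give 10 genes that mark these macrophages and were picked by symbol: Mrc1, Cd163, Lyve1, Stab1, Dab2, Pf4, F13a1, Cbr2, Ms4a7 and Clec12a. All 10 were present among the 19225 genes of the expression table, and 8 of the 10 averaged 10 cpm or more (cpm, reads of a gene per 1000000 reads of the scaled library total) and entered the test across genes.

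The libraries were made from CD11b-enriched brain cells of stress-naive male mice labelled 3 months of age, 3 libraries labelled Cnr1+/+ (strain C57BL6/J) and 3 labelled Cnr1-/- (strain Cnr1 tm1Zim). In the methods these are littermates of the B6.cg Cnr1 tm1Zim line on a C57BL/6J background, in which a neomycin cassette constitutively disrupts the coding region of Cnr1, the gene of the cannabinoid receptor CB1. Mice had been perfused with PBS, the cerebellum was removed, the rest of the brain was dissociated with a glass douncer, and myelin was taken off with Percoll before the bead step. How the meninges and choroid plexus were handled is not given in the sources used here. The comparison of the genotypes asks whether microglia of unstressed mice without CB1 differ in their transcriptome.

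Each library held between 7708793 and 10723826 effective reads, derived from the value of 1 read, so 3 reads, the limit that a count of 0 allows, corresponded to between 0.280 and 0.389 cpm. Cnr1 itself was at 0 in all 3 libraries labelled Cnr1+/+ and at 1.41, 1.21 and 1.79 cpm (13, 13 and 15 reads) in those labelled Cnr1-/-. The targeted gene thus went against the labels, and every direction below is that of the libraries labelled Cnr1-/- relative to those labelled Cnr1+/+. Replicate 2 of the libraries labelled Cnr1-/- stood apart, with neutrophil markers summing to 4099 cpm (268 to 530 cpm in the other 5 libraries) and erythrocyte markers to 2342 cpm (136 to 237 cpm in the other 5). The 14 microglia markers summed to between 19125 and 22304 cpm and 0 of them had a nominal p under 0.05 in limma. Cx3cr1, the fractalkine receptor, at 4743 to 5648 cpm, the growth factor receptor Csf1r at 2750 to 3441 cpm and the matrix protein gene Sparc at 2115 to 2556 cpm had the most tags of the list. The 10 macrophage markers together held between 335 and 474 cpm, or between 1.73% and 2.12% of the microglia marker sum. In such bulk libraries, fewer macrophages and less RNA per macrophage cannot be told apart.

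In brief, 2 of the 8 tested markers, Dab2 and Pf4, were lower at a nominal p under 0.05 in the libraries labelled Cnr1-/-, and 0 were higher. Over all 6659 genes tested, 0.931% were lower and 5.09% higher by the same rule. Dab2 was 32.0% lower and Pf4 28.2% lower, each with no overlap of the genotypes, which held in this direction for 2.13% of all genes. Fold changes here are differences of mean log2 (cpm + 0.1). The scavenger receptor genes Mrc1, Cd163, Lyve1 and Stab1 had overlapping groups and did not pass. No marker had an adjusted p under 0.1 (limma with Benjamini-Hochberg adjustment), against 0.105% of all genes. The promoters of Dab2, Pf4 and Cbr2, the 3 markers with the smallest nominal p, are printed here, from 250 bases before to 50 bases after the annotated start, as RefSeq gives them on GRCm38.p6. Capitals mark the GAGGAA core bound by the myeloid factor PU.1 and the site letters TGCTGAC bound by MAF factors, searched on both strands, so that a match on the opposite strand reads TTCCTC or GTCAGCA.
Dab2, upstream start, chr15:6299539-6299838, plus strand: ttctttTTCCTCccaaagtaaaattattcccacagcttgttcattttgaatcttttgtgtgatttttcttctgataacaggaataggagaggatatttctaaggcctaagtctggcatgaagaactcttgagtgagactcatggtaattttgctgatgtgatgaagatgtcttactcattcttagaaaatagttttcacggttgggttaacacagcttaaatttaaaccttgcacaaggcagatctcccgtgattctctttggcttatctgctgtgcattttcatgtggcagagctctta
Dab2, downstream start, chr15:6386498-6386797, plus strand: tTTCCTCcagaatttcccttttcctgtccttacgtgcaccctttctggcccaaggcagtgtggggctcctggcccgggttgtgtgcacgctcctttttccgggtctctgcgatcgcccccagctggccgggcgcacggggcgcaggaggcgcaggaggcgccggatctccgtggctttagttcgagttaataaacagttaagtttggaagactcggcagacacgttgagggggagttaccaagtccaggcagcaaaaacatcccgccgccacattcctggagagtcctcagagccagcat
Pf4, chr5:90772185-90772484, plus strand: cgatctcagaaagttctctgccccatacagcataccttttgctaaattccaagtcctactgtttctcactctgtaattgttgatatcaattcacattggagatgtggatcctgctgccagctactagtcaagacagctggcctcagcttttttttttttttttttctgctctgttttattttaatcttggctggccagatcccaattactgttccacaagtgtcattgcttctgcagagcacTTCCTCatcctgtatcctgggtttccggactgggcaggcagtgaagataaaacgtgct
Cbr2, chr11:120731972-120732271, minus strand: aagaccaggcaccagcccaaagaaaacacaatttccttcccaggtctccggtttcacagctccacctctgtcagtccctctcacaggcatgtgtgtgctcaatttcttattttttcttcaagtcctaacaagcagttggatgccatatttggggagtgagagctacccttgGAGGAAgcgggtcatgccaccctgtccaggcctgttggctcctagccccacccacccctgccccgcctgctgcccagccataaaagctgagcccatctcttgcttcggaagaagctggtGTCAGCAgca

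The PU.1 letters began 244 and 249 bases before the start in the Dab2 promoters, 8 bases before it in the Pf4 promoter and 79 bases before it in the Cbr2 promoter. These letters were present in 10 of the 12 promoters that RefSeq gives for 9 of the 10 markers (8 of 9 genes, Lyve1 having no entry), against 28.28% of 32851 mouse promoters of the same length. The MAF letters were found in 1 of the 12, that of Cbr2, against 4.673% of all promoters, and the letters TATAAA in 0 of the 12, against 13.62%. These matches describe the letters in these windows and were not tested as sites.

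Dab2, an endocytic adaptor protein that links receptors of the LDL receptor family to clathrin, is encoded on chromosome 15 from 6299788 to 6440713 on the plus strand of mm10. Its level was 28.3, 36.3 and 41.9 cpm in replicates 1, 2 and 3 labelled Cnr1+/+ and 20.7, 24.8 and 26.2 cpm in those labelled Cnr1-/-. All 3 libraries labelled Cnr1-/- were below all 3 labelled Cnr1+/+, with group means of 23.9 ± 2.89 and 35.5 ± 6.83 cpm (SD, n = 3 each). The log2 fold change was -0.56 (SE 0.188, 95% interval -0.94 to -0.17), for which limma gave p = 0.00629 (nominal; adjusted p = 0.650) and a two-sided exact permutation test p = 0.1, the smallest that 3 against 3 libraries allow. Dab2 passed the nominal threshold in all 16 other settings that were run, with log2 fold changes from -0.71 to -0.43 and adjusted p values from 0.255 to 0.944. Without Cnr1-/- replicate 2, the library with the high neutrophil and erythrocyte markers, its log2 fold change was -0.59 and it was the 1 marker still past the nominal threshold. Between 191 and 398 reads per library stood behind these values.

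Pf4, the chemokine platelet factor 4, made by megakaryocytes and also by border-associated macrophages, lies on chromosome 5 from 90772435 to 90773384 on the plus strand. It was measured at 20.9, 16.3 and 23.1 cpm in the libraries labelled Cnr1+/+ and at 14.8, 12.8 and 15.3 cpm in those labelled Cnr1-/-, again with no overlap of the groups. The means were 20.1 ± 3.51 and 14.3 ± 1.33 cpm (SD, n = 3 each), a log2 fold change of -0.48 (SE 0.222, 95% interval -0.93 to -0.02, limma nominal p = 0.0405, adjusted p = 0.809, exact permutation p = 0.1). The nominal call in limma was lost without Cnr1+/+ replicate 1 (log2 fold change -0.44), Cnr1+/+ replicate 3 (-0.37), Cnr1-/- replicate 1 (-0.51) or Cnr1-/- replicate 2 (-0.40). Since platelets carry Pf4 too, their other markers were summed. The 4 of 7 platelet genes that were listed summed to between 14.7 and 25.4 cpm in the libraries labelled Cnr1+/+ and to between 30.1 and 31.7 cpm in those labelled Cnr1-/-, with no overlap. The platelet glycoprotein gene Gp9, the 1 of the 4 that entered the test, had a log2 fold change of 0.36 (limma nominal p = 0.219, exact permutation p = 0.4), with overlapping groups. Treml1 alone did not overlap, at 5.84, 5.49 and 4.21 cpm against 7.90, 7.65 and 11.2 cpm. Gp1bb overlapped, at 9.75, 2.13 and 2.98 cpm against 9.32, 9.80 and 7.94 cpm, as did Itga2b at no more than 0.56 cpm. The part of platelets in the Pf4 level was not tested.

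Cbr2, a carbonyl reductase, lies on chromosome 11 from 120729489 to 120732115 on the minus strand. Its values were 15.8, 10.8 and 14.1 cpm in the libraries labelled Cnr1+/+ and 8.01, 6.81 and 12.998 cpm in those labelled Cnr1-/-. Replicates 1 and 2 labelled Cnr1-/- were below all other libraries, while replicate 3 lay within the Cnr1+/+ range. Means were 13.6 ± 2.57 and 9.27 ± 3.28 cpm (SD, n = 3 each), and the log2 fold change of -0.58 (SE 0.289, 95% interval -1.18 to 0.01) missed the nominal threshold (limma nominal p = 0.0547, adjusted p = 0.825, exact permutation p = 0.2). Cbr2 passed the nominal threshold in 8 of 15 other settings, including the 3 in which the libraries were rescaled. Its log2 fold change was -0.85 without Cnr1-/- replicate 3 and -0.74 without Cnr1+/+ replicate 2, both past the nominal threshold. Without Cnr1-/- replicate 2 it was -0.39 and did not pass, and over all settings it ranged from -0.85 to -0.39.

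F13a1, the A subunit of coagulation factor XIII, which cross-links fibrin and is also found in monocytes and megakaryocytes, lies on chromosome 13 from 36867178 to 37050245 on the minus strand. It was at 19.2, 28.0 and 28.7 cpm in the libraries labelled Cnr1+/+ and at 14.5, 20.6 and 27.1 cpm in those labelled Cnr1-/-. The groups overlapped, and their means of 25.3 ± 5.31 and 20.7 ± 6.28 cpm (SD, n = 3 each) differed by a log2 fold change of -0.31 (SE 0.225, 95% interval -0.77 to 0.15, limma nominal p = 0.181, adjusted p = 0.9004, exact permutation p = 0.5). It passed the nominal threshold only without Cnr1+/+ replicate 1 (-0.50) or without Cnr1-/- replicate 3 (-0.52). Leaving out Cnr1-/- replicate 1 reduced its log2 fold change to -0.08, and without Cnr1+/+ replicate 3 it was -0.21. The 8 monocyte markers summed to between 34.6 and 40.5 cpm in the libraries labelled Cnr1+/+ and to 39.4, 118 and 32.3 cpm in those labelled Cnr1-/-. The high value of replicate 2 came with 68.4 cpm of Chil3, a chitinase-like protein gene also abundant in neutrophil precursors. Chil3 was at 9.64 and 5.72 cpm in the other libraries labelled Cnr1-/- and at 7.91, 5.49 and 2.63 cpm in those labelled Cnr1+/+, with overlapping groups. It passed the nominal threshold as higher, with a log2 fold change of 1.66 (limma nominal p = 0.00481, adjusted p = 0.610, exact permutation p = 0.2). The monocyte receptor gene Ccr2 was between 15.4 and 23.4 cpm in every library.

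**Figure D1:**
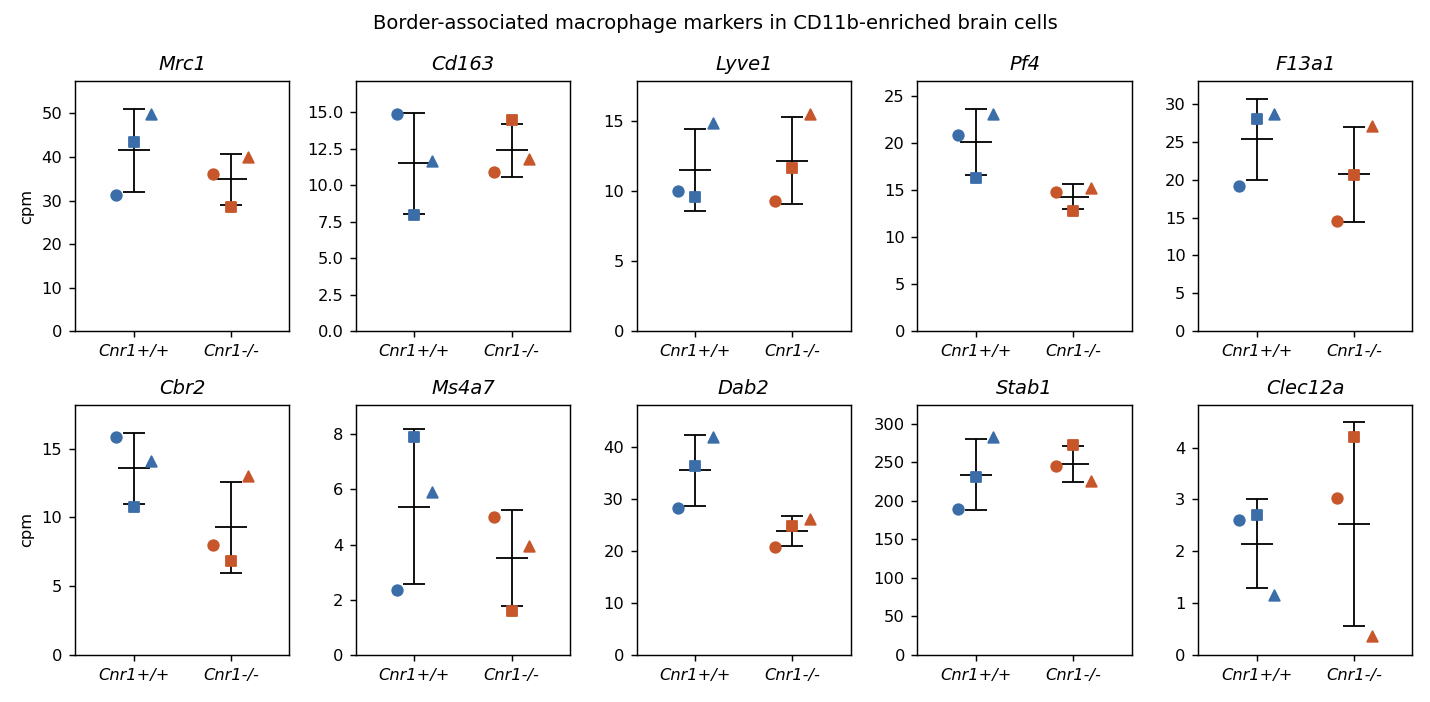
Level of each marker in cpm (vertical axes from 0, 1 panel per gene) in the 3 libraries of each genotype label. Circles, squares and triangles are replicates 1, 2 and 3, and the black bars give the mean ± SD. The points of the genotypes do not overlap for Dab2 and Pf4 and overlap for the other 8 markers.

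The 4 receptors by which these macrophages bind and internalise ligands had overlapping levels. Mrc1, the mannose receptor CD206 (chromosome 2, 14229392 to 14332058, plus strand), was at 31.3, 43.4 and 50.0 cpm in the libraries labelled Cnr1+/+ and at 36.1, 28.5 and 40.1 cpm in those labelled Cnr1-/-. The lowest value was that of Cnr1-/- replicate 2 and the highest that of Cnr1+/+ replicate 3, with the other 4 libraries interleaved. Means were 41.5 ± 9.48 and 34.9 ± 5.85 cpm (SD, n = 3 each), and the log2 fold change was -0.24 (SE 0.185, 95% interval -0.62 to 0.14, limma nominal p = 0.208, adjusted p = 0.9004, exact permutation p = 0.4). Without Cnr1+/+ replicate 1 it was -0.43, the 1 setting of 16 in which Mrc1 passed the nominal threshold. It was reduced to -0.09 by leaving out Cnr1+/+ replicate 3 and to -0.10 by leaving out Cnr1-/- replicate 2.

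Stab1, the scavenger receptor stabilin-1 (chromosome 14, 31139013 to 31168642, minus strand), is also expressed by microglia. Its levels were 189, 231 and 282 cpm in the libraries labelled Cnr1+/+ and 245, 273 and 226 cpm in those labelled Cnr1-/-, so that the genotypes interleaved. The means of 234 ± 46.6 and 248 ± 23.6 cpm (SD, n = 3 each) gave a log2 fold change of 0.10 (SE 0.134, 95% interval -0.18 to 0.37, limma nominal p = 0.472, exact permutation p = 0.7). Nt5dc2 overlaps Stab1 on the opposite strand and was at 5.58 to 7.38 cpm, and whether the counting used strand is not given in the sources used here. Stab1 held between 56.6% and 68.5% of the summed tags of the 10 markers in each library.

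Cd163, the receptor for complexes of haemoglobin and haptoglobin (chromosome 6, 124304656 to 124330528, plus strand), was at 14.9, 7.98 and 11.7 cpm in the libraries labelled Cnr1+/+ and at 10.9, 14.5 and 11.8 cpm in those labelled Cnr1-/-. Cnr1+/+ replicates 1 and 2 were the highest and the lowest of the 6 libraries. The log2 fold change was 0.14 (SE 0.275, 95% interval -0.43 to 0.71, limma nominal p = 0.615, exact permutation p = 0.8).

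Lyve1, a hyaluronan receptor (chromosome 7, 110850607 to 110863240, minus strand), was at 9.99, 9.58 and 14.8 cpm in the libraries labelled Cnr1+/+ and at 9.31, 11.7 and 15.5 cpm in those labelled Cnr1-/-. In each genotype replicate 3 was the highest, and the log2 fold change was 0.08 (SE 0.278, 95% interval -0.49 to 0.65, limma nominal p = 0.772, exact permutation p = 0.8). The sign of the Lyve1 difference turned to -0.02 both after quantile normalisation and after rescaling without mitochondrial genes. Lymphatic endothelial cells also express Lyve1. Of 4 markers of these cells, the 2 present in the table summed to between 12.5 and 16.8 cpm in the libraries labelled Cnr1+/+ and to between 10.6 and 17.9 cpm in those labelled Cnr1-/-. Prox1, a transcription factor gene listed as a marker of these cells, made up most of that sum, at 10.2 to 17.4 cpm. Pdpn, the other gene present, was at 0.0933 to 1.79 cpm, so the sum rested mainly on Prox1. The part of these cells in the Lyve1 level was not tested. No statement of equality follows for these 4 receptors, since the intervals reach changes of at least 0.37 on the log2 scale.

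The remaining membrane proteins were too low for the test. Ms4a7, a tetraspan membrane protein that marks these macrophages against microglia (chromosome 19, 11321039 to 11336147, minus strand), was at 2.33, 7.88 and 5.89 cpm in the libraries labelled Cnr1+/+ and at 4.98, 1.59 and 3.94 cpm in those labelled Cnr1-/-. The groups overlapped (exact permutation p = 0.5), and only 17 to 79 reads per library were behind these values. Clec12a, an inhibitory C-type lectin receptor of myeloid cells (chromosome 6, 129342691 to 129365304, plus strand), was at 2.59, 2.69 and 1.16 cpm in the libraries labelled Cnr1+/+ and at 3.03, 4.20 and 0.358 cpm in those labelled Cnr1-/-. The lowest of these was 3 reads and the highest 45, both in libraries labelled Cnr1-/- (exact permutation p = 1.0). With all 19225 genes fitted and no filter, the nominal p was 0.235 for Ms4a7 and 0.771 for Clec12a in limma.

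The markers were then set beside all genes. Of the 6659 genes tested, 62 were lower in the libraries labelled Cnr1-/- at a nominal p under 0.05 (0.931%), 339 were higher (5.09%), and 7 had an adjusted p under 0.1 (0.105%). Among the 8 tested markers the counts were 2 lower, 0 higher and 0 with an adjusted p under 0.1. The genes called higher included 7 of the 9 neutrophil markers and all 4 tested erythrocyte markers. Without Cnr1-/- replicate 2, 79 of 6583 genes were lower and 172 higher, and 1 marker was lower and 0 higher. The genotypes did not overlap, with the libraries labelled Cnr1-/- lower, for 142 of all genes (2.13%) and for 2 of the 8 markers. By sign alone, 5 markers had a lower and 3 a higher mean in the libraries labelled Cnr1-/-, whereas 31.6% of all tested genes had a lower mean. The median log2 fold change was -0.27 over the 8 markers and 0.08 over all genes. Leaving out Cnr1+/+ replicate 3 brought the median of the markers to -0.15, and leaving out Cnr1-/- replicate 1 to -0.17. It was -0.44 when Cnr1+/+ replicate 1 was left out and -0.43 for Cnr1-/- replicate 3.

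These backgrounds depended on the scaling of the libraries. Centring each library on its median gave 178 genes lower and 197 higher (2.67% lower), quantile normalisation gave 197 lower and 163 higher (2.96% lower), and rescaling without mitochondrial genes gave 212 lower and 142 higher of 6650 (3.19% lower). In each of these 3 settings Dab2, Pf4 and Cbr2 passed the nominal threshold as lower, 0 markers were higher and 0 had an adjusted p under 0.1. The median log2 fold change of the markers was then -0.35, -0.35 and -0.37, and that of all genes 0.01, -0.00 and -0.02. Of the 8 markers, 5, 6 and 7 had a lower mean in these 3 settings.

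**Figure D2:**
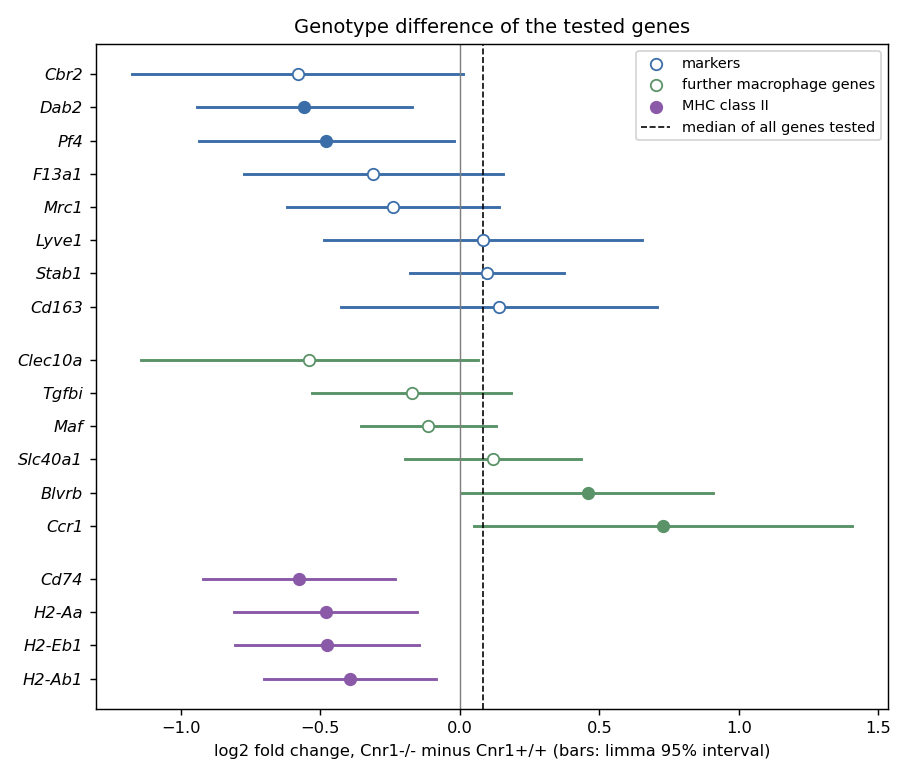
Log2 fold change of the libraries labelled Cnr1-/- relative to those labelled Cnr1+/+ (horizontal axis) with the limma 95% interval for each tested marker, further macrophage gene and MHC class II gene. Filled points have a nominal p under 0.05, and the dashed line is the median of all genes tested (0.08). Dab2 and Pf4 are filled to the left of 0, the 4 MHC class II genes are filled to the left and Ccr1 and Blvrb to the right.

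**Figure D3:**
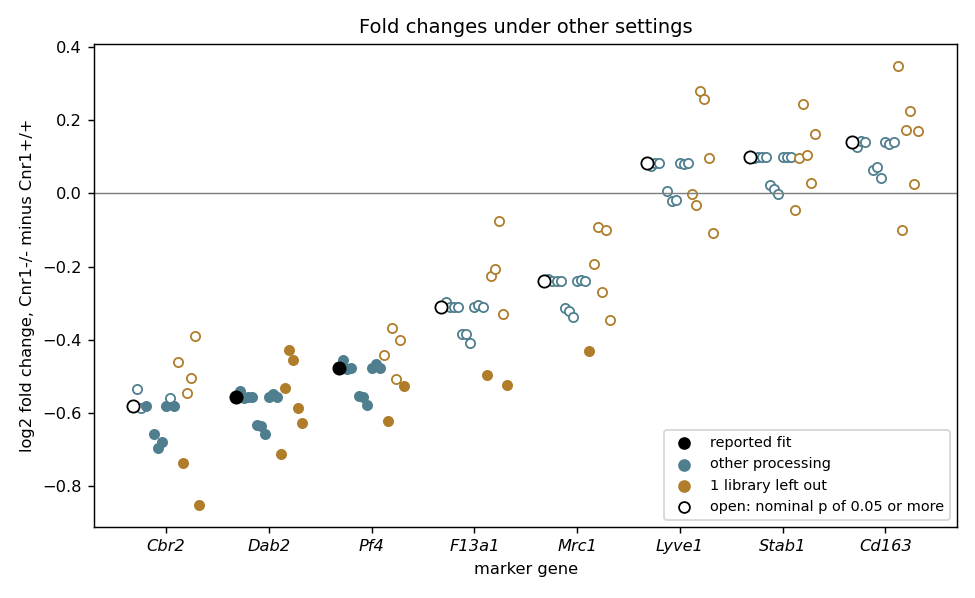
Log2 fold change of each tested marker (vertical axis) under the reported fit (black), other processing (blue) and with 1 library left out (brown). Open points have a nominal p of 0.05 or more. Dab2 stays filled and between -0.71 and -0.43 throughout, while the points of Lyve1, Cd163 and Stab1 lie on both sides of 0.

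The summed level of the 10 markers was 335, 393 and 474 cpm in the libraries labelled Cnr1+/+ and 367, 398 and 379 cpm in those labelled Cnr1-/-. These sums overlapped, with means of 401 ± 69.8 and 382 ± 15.6 cpm (SD, n = 3 each) and a log2 ratio of -0.07. The sign of this ratio turned to 0.07 without Cnr1+/+ replicate 3, and the ratio was -0.18 without Cnr1+/+ replicate 1 and between -0.16 and -0.14 under the 3 rescalings. Since Stab1 held most of the summed tags, the sum was also taken without it, and both sums as a percentage of microglia markers, alternatives chosen after seeing the data. Without Stab1 the sum was 145, 163 and 191 cpm against 122, 125 and 153 cpm, still overlapping, with a log2 ratio of -0.32. As a percentage of the 14 microglia markers of the same library, all 10 markers stood at 1.97 ± 0.213% and 1.81 ± 0.0295% (SD, n = 3 each), with overlapping groups and a log2 ratio of -0.12. On the same scale, the 9 markers without Stab1 stood at 0.750%, 0.852% and 0.858% in the libraries labelled Cnr1+/+ and at 0.604%, 0.579% and 0.719% in those labelled Cnr1-/-. For these 9 the groups did not overlap, with means of 0.820 ± 0.0607% and 0.634 ± 0.0747% (SD, n = 3 each). Sums over the markers are given as descriptions, with no test.

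**Figure D4:**
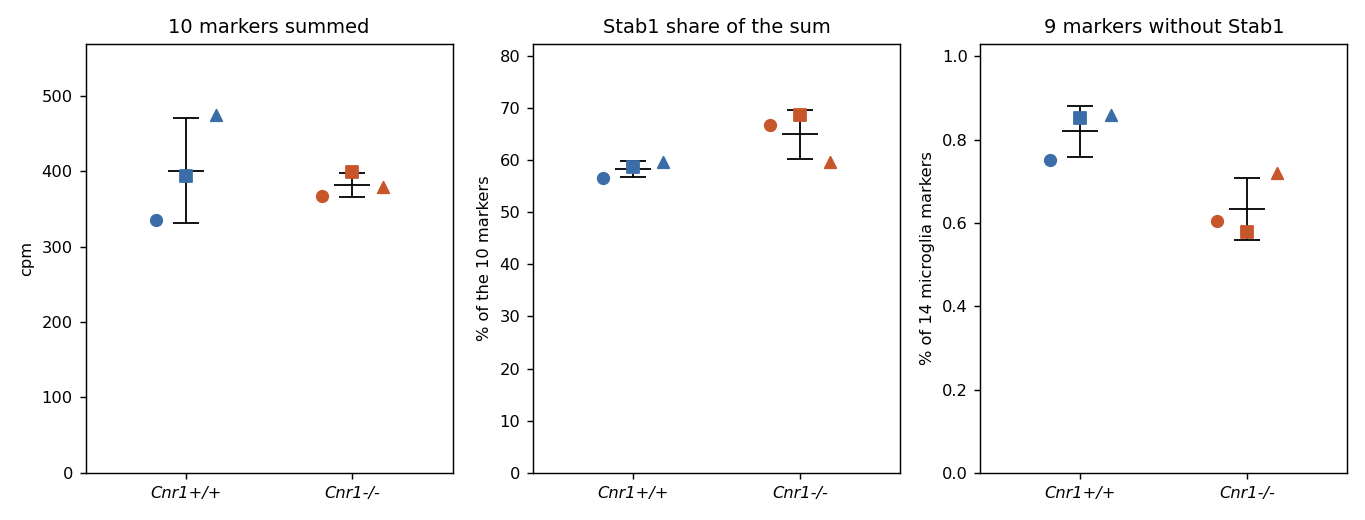
Summed cpm of the 10 markers (left), share of Stab1 in that sum in % (middle) and the 9 markers without Stab1 as a % of 14 microglia markers (right), all axes from 0, for each library with the mean ± SD. The genotypes overlap in the left and middle panels and do not overlap in the right panel, where the libraries labelled Cnr1-/- lie between 0.579% and 0.719%.

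Levels varied between libraries of the same genotype as well as between genotypes. Cnr1+/+ replicate 3 had the highest level of 5 of the 8 tested markers and the lowest of 0. This was not particular to the markers, since the same library had the highest microglia marker sum (22304 cpm). It also had the lowest mitochondrial share of the listed tags, at 5.37% against 7.03% to 8.54% in the other libraries. Cnr1-/- replicates 1 and 2 had the lowest level of 3 markers each and the highest of 0. Cnr1+/+ replicate 1 was the highest for Cd163 and Cbr2, and Cnr1-/- replicate 3 was the highest for Lyve1. Over the 28 pairs of tested markers, Pearson r of the log2 values across the 6 libraries was positive in 22, with a median of 0.32. It ranged from -0.66 for Mrc1 and Cd163 to 0.84 for Pf4 and Cbr2, and was 0.82 for Dab2 and F13a1. The libraries share their scaling and each r rests on 6 points, so these are descriptions.

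**Figure D5:**
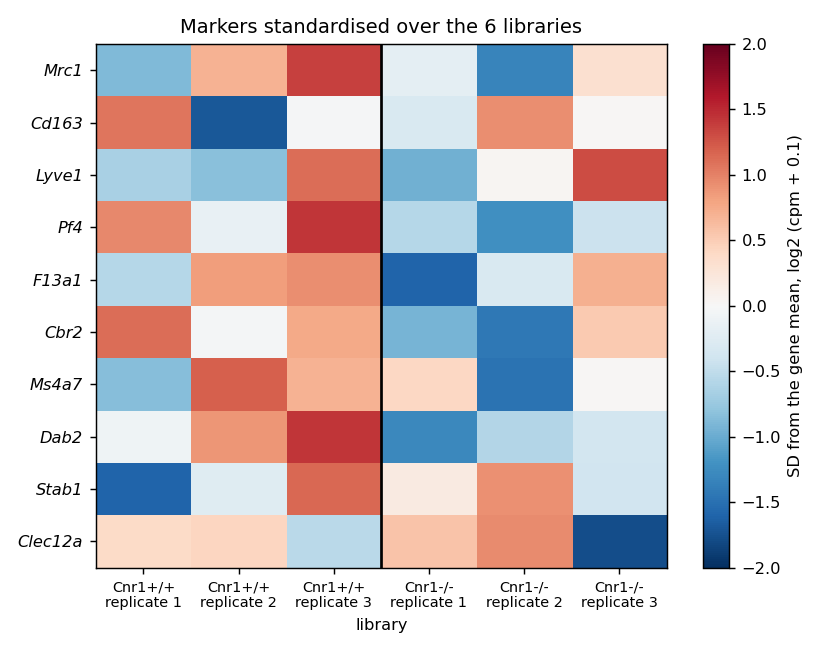
Level of each marker (rows) in each library (columns) as the number of SD from the mean of that gene over the 6 libraries, on the log2 (cpm + 0.1) scale, with red above and blue below the mean. The column of Cnr1+/+ replicate 3 is mostly red, the columns of Cnr1-/- replicates 1 and 2 are mostly blue for Dab2, Pf4 and Cbr2, and the rows of Cd163, Lyve1 and Stab1 show no separation of the genotypes.

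Outside the lists, 5 genes tracked the mean standardised level of the tested markers most closely over the 6 libraries. These were Ldha, a lactate dehydrogenase subunit (r = 0.983), Tmem183a (r = 0.981), the complement receptor gene C3ar1 (r = 0.979), the histone deacetylase gene Hdac1 (r = 0.977) and Rangap1, a nuclear transport protein gene (r = 0.976). Of the 6651 genes compared, 49 had an r of at least 0.9. The 5 were picked as the highest r of all genes compared, and each r rests on 6 points. The share of genes reaching such an r by chance was not computed, so these are descriptions and no sign of a shared cell type. None of the 5 passed the nominal threshold between genotypes, with limma nominal p values from 0.173 for C3ar1 to 0.380 for Tmem183a.

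A further list of 20 genes described in perivascular and meningeal macrophages was read in the same fit. Of its 6 genes that entered the test, 2 were higher at a nominal p under 0.05 in the libraries labelled Cnr1-/- (5.09% of all genes) and 0 were lower. Ccr1, a chemokine receptor gene, was at 4.41, 10.97 and 7.89 cpm against 8.99, 12.8 and 15.4 cpm (log2 fold change 0.73, limma nominal p = 0.0365, adjusted p = 0.809, exact permutation p = 0.2). Blvrb, a biliverdin reductase gene, was at 14.4, 14.9 and 21.3 cpm against 18.5, 25.4 and 25.4 cpm (0.46, limma nominal p = 0.0458, adjusted p = 0.821, exact permutation p = 0.2). Both had overlapping groups. Without Cnr1+/+ replicate 1 the log2 fold change of Ccr1 was 0.37 and that of Blvrb 0.36, and neither passed. Under the 3 rescalings neither gene was called, with log2 fold changes of 0.65 and 0.55 for Ccr1, which was below the filter in the last, and of 0.38, 0.39 and 0.36 for Blvrb. The lectin receptor gene Clec10a was at -0.54 in the reported fit (limma nominal p = 0.0775, exact permutation p = 0.2), and at -0.34 without Cnr1-/- replicate 1. Under the rescalings Clec10a and the transcription factor gene Maf were lower at a nominal p under 0.05, with log2 fold changes from -0.69 to -0.62 and from -0.22 to -0.19, where 2.67%, 2.96% and 3.19% of all genes were lower.

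The genes with the most tags in this list did not pass in the reported fit. Maf was at 789 ± 78.2 and 728 ± 39.8 cpm, the iron exporter gene Slc40a1 at 54.1 ± 8.44 and 58.5 ± 4.63 cpm, and the matrix protein gene Tgfbi at 37.4 ± 4.68 and 33.2 ± 5.07 cpm (SD, n = 3 each). The Maf level was above that of every marker, including Stab1, and the part of microglia in it was not tested. The median log2 fold change of the 6 tested genes was 0.00. Among the 14 below the filter, 3 lectin genes had every library labelled Cnr1-/- below every library labelled Cnr1+/+, as had 4.33% of the 12566 genes below the filter. The genes named from these 14 were chosen after their values were seen. Cd209f had 18, 37 and 47 reads against 7, 17 and 6 reads (2.33, 3.69 and 4.94 against 0.758, 1.59 and 0.716 cpm), with a log2 fold change of -1.77 in the fit without a filter (limma nominal p = 0.00867, adjusted p = 0.786, exact permutation p = 0.1). Mgl2 had 75, 112 and 57 reads against 54, 52 and 44 reads, rounded, (9.73, 11.2 and 5.99 against 5.85, 4.85 and 5.30 cpm). In Cnr1-/- replicate 3, Mgl2 and Clec10a held fractional reads (44.46 and 71.54), and whether these genes share tags was not tested. Cd209g had 4, 5 and 4 reads against 3, 0 and 0 reads, close to the 3 reads that a count of 0 allows, so its lack of overlap carries little weight. Others of the 14 had higher means in the libraries labelled Cnr1-/-, with overlapping groups. The chemokine gene Ccl24 was at 3.11, 1.70 and 4.94 cpm against 4.44, 5.41 and 9.30 cpm (log2 fold change 1.00, limma nominal p = 0.0292 without a filter, exact permutation p = 0.2). Siglec1, a sialic acid receptor gene, had 2, 11 and 0 reads against 14, 12 and 6 reads, and Cd38, an NAD-consuming ectoenzyme gene, had 8, 3 and 4 reads against 15, 7 and 16 reads. In the fit without a filter, 2 of the 20 genes (Cd209f and Mgl2) were lower and 3 (Ccr1, Blvrb and Ccl24) higher at a nominal p under 0.05, against 1.48% and 3.68% of all 19225 genes.

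Genes of antigen presentation and of neighbouring cells were read beside the markers. The 4 MHC class II genes, which part of the border-associated macrophages and dendritic cells express, were each lower at a nominal p under 0.05, with no overlap of the genotypes, against 0.931% of all genes lower at that threshold and 2.13% lower without overlap. The log2 fold change was -0.48 for H2-Aa, -0.39 for H2-Ab1, -0.47 for H2-Eb1 and -0.58 for Cd74, the invariant chain gene (limma nominal p from 0.00195 to 0.0145). Their sum was 185 to 207 cpm in the libraries labelled Cnr1+/+ and 134 to 148 cpm in those labelled Cnr1-/-, and no gene of the 4 had an adjusted p under 0.1, the smallest being 0.480 for Cd74. The 5 of 6 dendritic cell markers that were listed, led by Itgax, Zbtb46 and Cd209a, summed to between 9.60 and 16.9 cpm against between 7.75 and 9.14 cpm, also without overlap. Endothelial markers summed to 30.2 to 36.0 cpm against 23.1 to 34.7 cpm, and fibroblast and mural cell markers to 7.52 to 19.4 cpm against 3.14 to 10.3 cpm. The part of these cells in the levels of Dab2, Pf4 or Cbr2 was not tested.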

How the data were processed

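RNA of CD11b-enriched brain cells was sequenced with QuantSeq 3′ FWD, which gives about 1 tag per transcript near its end. Tags were not scaled by length, so sums over genes and shares of a sum weigh genes by their tags. The authors trimmed the reads, aligned them to mm10 with STAR 2.6.1d in Partek Flow, estimated gene counts by expectation-maximisation against Ensembl release 99 and deposited TMM-scaled cpm. The listed genes held 50.1% to 59.1% of each scaled total. Of the values, 81.2% to 83.1% per library were whole multiples of 1 read (tolerance 0.01 read), so no count test was run. Effective depth was read from the value of 1 read; limits from read counts cover counting error only. The labels do not name the animals, so p-values measure the spread between these libraries.

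Genotypes were compared with limma 3.58.1 in R 4.3.3 (lmFit, eBayes with a trend) on log2 (cpm + 0.1) over genes averaging 10 cpm or more, with a single term for genotype, Benjamini-Hochberg adjustment over 6659 genes and the thresholds of nominal p under 0.05 or adjusted p under 0.1. Markers also had an exact permutation test (two-sided) over the 6 libraries (scipy 1.17.1). Scripts were tested on simulated data. All 10 markers were named; in the other lists genes with a nominal p under 0.05 and the 3 with the most tags were named where the text turns on them, and beyond the lists the 5 genes most like the markers. Markers and lists were chosen with earlier results of these data known. Alternatives changed the pseudocount, filter, scaling, variance model and libraries. Gene positions are those given with the deposited values, promoters are from RefSeq (GRCm38.p6).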

Additional observations from a re-analysis of the deposited data

How the results depend on the processing

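Dab2 kept its direction and its nominal call in each of the 16 other settings. The number of markers with a nominal p under 0.05 was 2, 1 with a minimum mean of 20 cpm (which removes Pf4, Cbr2, Cd163 and Lyve1), and 1 to 4 when 1 library was left out, with Cnr1-/- replicate 3 giving 4 and Cnr1+/+ replicate 3 and Cnr1-/- replicates 1 and 2 giving 1. The number of markers higher was 3, falling to 1 with a minimum mean of 20 cpm, to 1 without mitochondrial genes and to between 1 and 3 with 1 library left out. Lyve1 changed sign after quantile normalisation (-0.020), without mitochondrial genes (-0.017) and without Cnr1+/+ replicate 1 (-0.0029), Cnr1+/+ replicate 2 (-0.033) or Cnr1-/- replicate 3 (-0.11). Cd163 changed sign without Cnr1+/+ replicate 2 (-0.099), and Stab1 without mitochondrial genes (-0.0014) and without Cnr1+/+ replicate 1 (-0.045). With 1 library left out these 3 genes reached at most 0.28 (Lyve1), 0.35 (Cd163) and 0.24 (Stab1) on the log2 scale. Over all genes, 401 had a nominal p under 0.05, 993 without a filter, 263 with a minimum mean of 20 cpm and 251 to 600 with 1 library left out, the lowest without Cnr1-/- replicate 2. In the further macrophage list 2 genes passed, 5 without a filter, 0 with a minimum mean of 20 cpm (where 3 genes remained) and 0 to 2 with 1 library left out. The summed level of the markers had a log2 ratio of -0.07, -0.32 without Stab1 and -0.37 without Stab1 as a percentage of microglia markers; it was -0.039 with a minimum mean of 20 cpm (4 markers), -0.16 without mitochondrial genes and -0.18 to 0.068 with 1 library left out, positive without Cnr1+/+ replicate 3. It does not use the pseudocount, the variance model or the block. Replicate numbers did not pair the libraries (same-number correlations of -0.056, -0.032 and -0.031); with the replicate block 421 genes and 3 markers passed, Cbr2 with a nominal p of 0.0462 in limma. The cause of these changes was not tested beyond the genes or libraries removed.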
